A study of Brassica rapa with 36 samples.

Results

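The 72 genes described here were raised by heat shock in microspores of the Brassica rapa line K2, barely moved in heated microspores of the line 49CX, and stood at or above their heated level in early K2 embryos. They were chosen from 47135 gene IDs by their levels in CPM, which is a gene's count scaled to a common total of gene counts per library. A heat change H was taken as log2 of heated mean CPM plus 20 over unheated mean CPM plus 20. Members had an H of at least 2 in K2, an absolute H under 0.5 in 49CX, and a median CPM over the 9 embryo libraries at or above the mean of heated K2. Of 517 genes with an H of at least 2 in K2, 311 also passed the limit in 49CX, and 72 of these passed the embryo limit. The other 239 fell below their heated level in embryos and are used here for contrast.

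Androgenesis is the formation of embryos from microspores, the immature pollen cells. A microspore normally divides asymmetrically and matures to pollen. In Brassica species a heat stress applied in culture is a common trigger that turns part of the microspores to embryo formation instead, and lines differ widely in how readily they respond. Genes that heat raises in such cultures include short-lived stress genes, such as those of heat shock proteins, and genes that stay on as the embryo develops.

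RNA-seq was done on 36 libraries in 12 groups of 3. The series describes K2 as inducible and 49CX as non-inducible. From K2 there were microspores of the late unicellular stage, heat-shocked and unheated microspores, embryos of 2, 4 and 8 cells, pollen and leaf. From 49CX there were the microspores of those 3 kinds and leaf. No group carries a transgene or a mutation in the labels, and the labels state no duration or temperature of heating and no cell number. Since they do not say whether the replicates are separate plants, the p-values cover the spread among these libraries alone, which may be technical.

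K2 pollen replicates 2 and 3 held 0 gene counts, which leaves 1 pollen library with no replicate check. Gene counts in the other 34 libraries ranged from 6021 to 1179935. The shallowest were 2-cell replicate 3 (6021 counts, so that 1 count is worth 166 CPM) and 4-cell replicate 1 (8549 counts, 117 CPM). A heated mean under the worth of 1 count was seen for 48 members against the first and 30 against the second, so single reads decide those entries. In 2-cell replicate 2 and 8-cell replicate 3, a list of 276 pollen IDs, holding 0 members, took 2.67% and 4.07% of gene counts, against 0.0270% to 0.980% in the other embryo libraries. Without the 2 shallow libraries 76 genes met the rule, all 72 members among them. Without the 2 libraries high in the pollen list 72 genes met it, 71 of them members.

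The gene IDs are printed as deposited. They carry no names in the files, and 0 of them matched the RefSeq gene table used, so no function is given to any member and the members are ordered by where else they were expressed.

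The levels that chose the members are given as a description, with no test. H in K2 ran from 2.01 to 5.33 with a median of 2.42, and H in 49CX from -0.40 to 0.49 with a median of 0.14. Just inside and outside the limits, H in K2 was 2.01 and 1.99, absolute H in 49CX was 0.487 and 0.505, and the embryo median over the heated mean was 1.06 and 0.972. The mean level in heated K2 ran from 65.3 to 1363 CPM, with a median of 125 CPM. The embryo median ran from 71.0 to 5485 CPM, with a median of 406 CPM. The embryo median was at least 2 times the heated mean for 45 members, at least 5 times for 17 and at least 10 times for 3.

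As a group the members went from a trace of the RNA in unheated K2 microspores to a sizeable part of it in embryos. They held 0.0710% ± 0.0067 of gene counts in unheated K2 (SD, n = 3), 1.45% ± 0.133 in heated K2, 7.88% ± 1.90 in embryos of 2 cells, 5.33% ± 0.703 in those of 4 and 6.95% ± 1.49 in those of 8. The lowest 2-cell and 8-cell libraries, at 5.80% and 5.23%, were those high in the pollen list. The part of the pollen list in this was not tested. The 239 contrast genes held more than the members in heated K2, 5.18%, and less in embryos, at 1.25%, 1.30% and 1.28% in the 3 stages. These are sums over 239 and 72 genes. Per gene, the median level in heated K2 was 160 CPM for contrast genes and 125 CPM for members. The rise with heat in K2, and the side of its heated mean on which each gene's embryo median lies, follow from the rule. The order of the 3 stages is not set by the rule. Members and contrast genes, however, were split by embryo median over heated mean. This ratio was at least 1.06 for members and had a median of 0.083 for contrast genes, 98 of which had an embryo median of 0. The higher embryo share of the members is thus not independent of the rule and supports no conclusion. In bulk libraries, fewer cells of a type and less RNA per cell cannot be told apart.

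**Figure D1:**
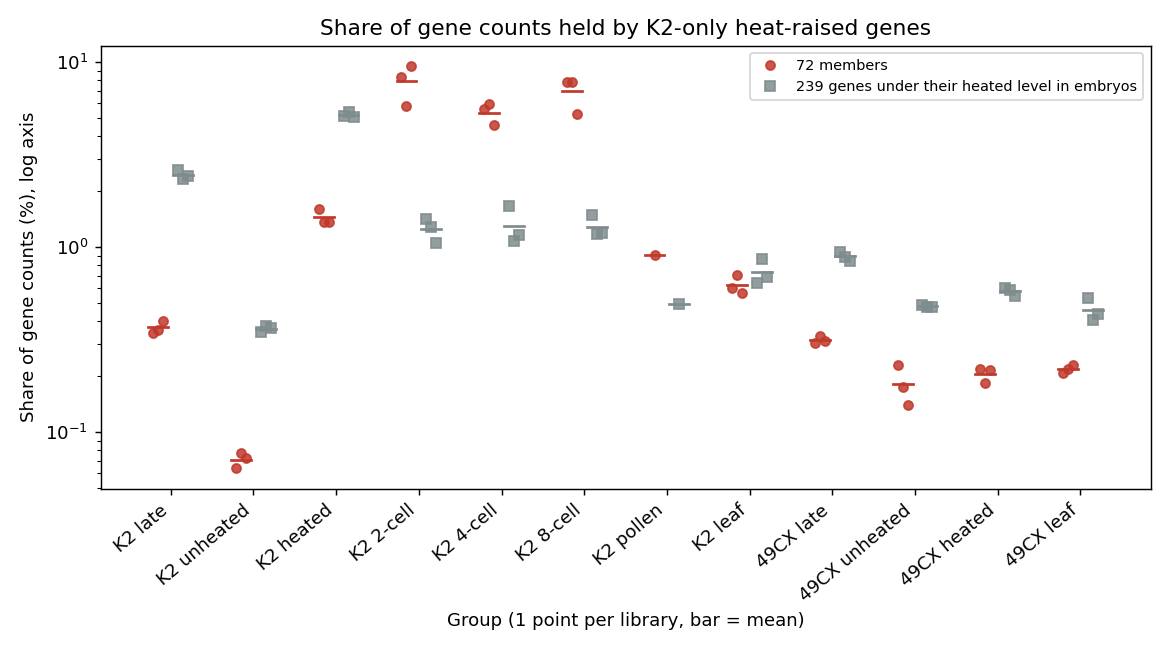
Share of gene counts (percent, log axis) held by the 72 members (red circles) and by the 239 genes under their heated level in embryos (grey squares), with 1 point per library and a bar at each group's mean. The members run from 0.0710% in unheated K2 to 7.88% in 2-cell embryos, and stay between 0.182% and 0.314% in the 49CX groups.

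Groups that the rule did not use show what else these genes do. In K2 late microspores the members held 0.368% ± 0.0289 of gene counts (SD, n = 3), and the contrast genes 2.46%. In K2 leaf the members held 0.625% ± 0.0755 and the contrast genes 0.731%. These shares sum over 72 and 239 genes. Per gene, the median level was 5.28 CPM for members and 18.2 CPM for contrast genes in K2 late microspores. In K2 leaf it was 10.4 and 6.53 CPM, so there the order was the other way. In 49CX the members held 0.314% ± 0.0134 in late microspores and 0.219% ± 0.0106 in leaf. The pollen library gave 0.904% (exact 95% interval 0.850% to 0.959%, counting error only).

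In the pollen library 62 of the 72 members had 0 counts and 3 reached 20 CPM. A single gene, BraC04g010360.1, held 97.0% of the members' summed CPM there. Its pollen level was 8765 CPM (exact 95% interval 8241 to 9312, from 1037 counts), rank 6 among all genes of that library. Without it the members' share of pollen counts was 0.0270%. The same gene held 72.5% of the members' summed CPM in 49CX late microspores, 64.9% in 49CX unheated, 61.6% in 49CX heated, 28.9% in K2 unheated and 22.0% in K2 late microspores, but 9.39% in heated K2. Without it the share was 0.0864% in 49CX late, 0.0639% in 49CX unheated and 0.0795% in 49CX heated microspores.

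The flat heat response in 49CX was for most members one of genes with little or no RNA. Of the 72, 60 were under 20 CPM in both heated and unheated 49CX, 10 had 0 counts in all 6 of those libraries, and 4 had 0 counts in all 9 libraries of 49CX microspores. One count there is worth 4.18 to 9.27 CPM. Within the limit of the rule, 48 members were higher with heat in 49CX, 14 lower and 10 equal at 0. Summed CPM in 49CX was 1.14 times as high with heat as without, and 1.24 times without BraC04g010360.1 (795 against 639 CPM), against 20.4 times in K2. With 5 in place of 20 CPM added in H, 33 members passed out of the 49CX limit, 31 of them by being higher with heat. The added 20 CPM makes changes at low level small, and the set depends on it.

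By presence at 20 CPM or more in K2 late microspores and in K2 leaf, the members fell into 4 classes. There were 41 members (56.9%) in neither, 18 (25%) in both, 9 in leaf alone and 4 in late microspores alone. Among the 239 contrast genes, 103 were in neither, 67 in both, 18 in leaf alone and 51 in late microspores alone. The members in both had a median of 66.2 CPM in late microspores and 135 CPM in leaf, and a median embryo level of 721 CPM. Those in neither had a median of 94.1 CPM in heated K2 and 383 CPM in embryos. At 20 CPM or more were 30.6% of the members in K2 late microspores and 37.5% in K2 leaf, against 24.4% and 21.2% of all genes.

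A set of 39 members (54.2%) was under 20 CPM on average in K2 late microspores, K2 leaf, the pollen library and all 4 groups of 49CX. These stood above that level in heated K2 (65.3 to 325 CPM, median 92.5) and in embryos (embryo median 71.0 to 1495 CPM, median 322), as the rule requires. The same held for the low groups of 80 contrast genes (33.5%). No test of this difference was made.

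**Figure D2:**
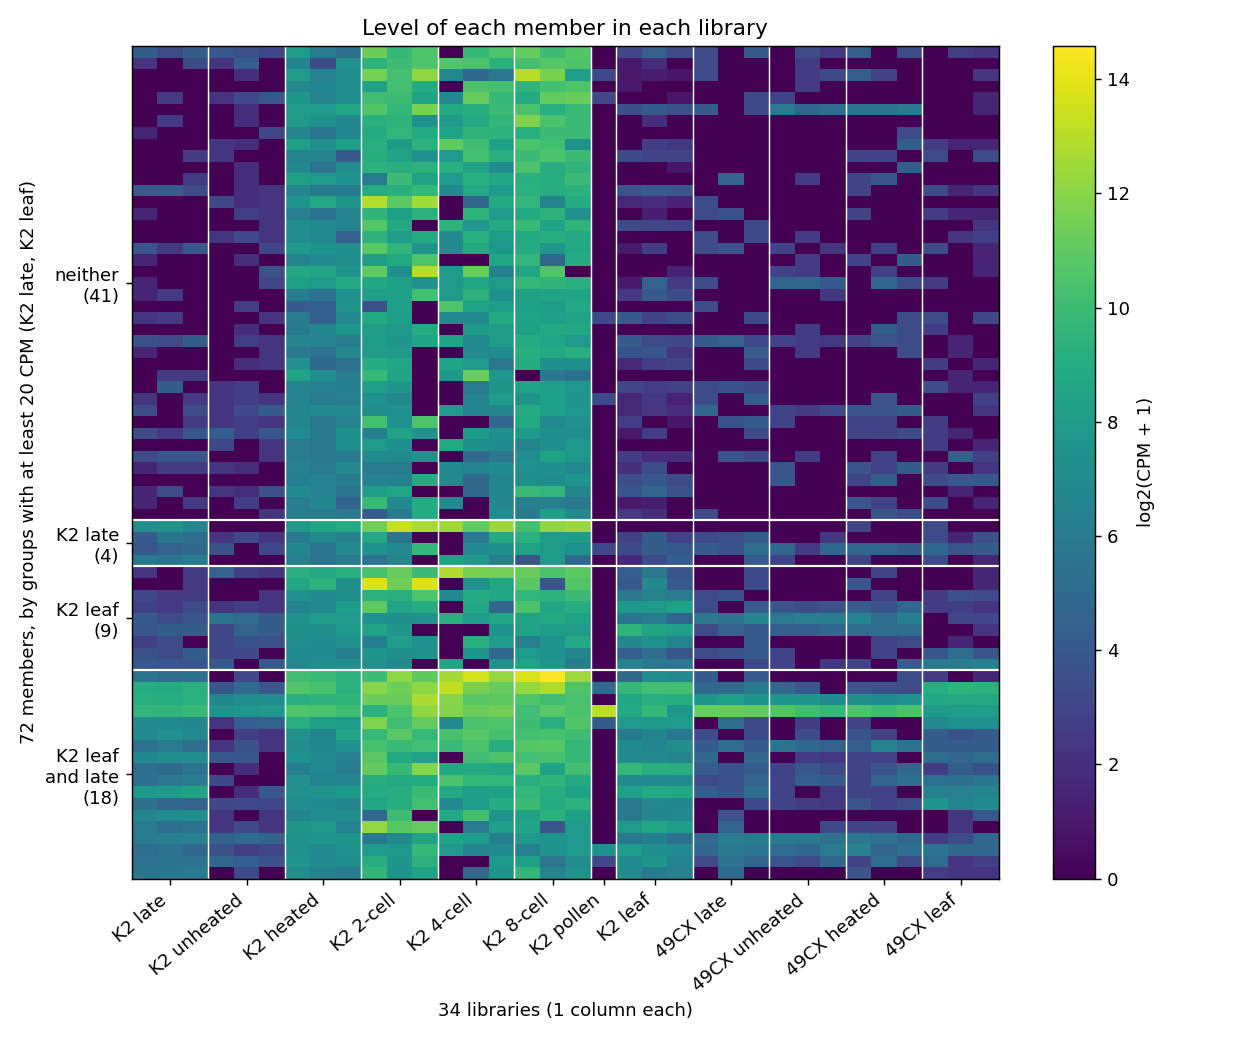
Level of each member (rows, colour is log2 of CPM plus 1) in each of 34 libraries (columns), with rows split by whether the mean reached 20 CPM in K2 late microspores, K2 leaf, both or neither. Heated K2 columns are filled for all rows and embryo columns for most, with 47 of 72 members detected in 4-cell replicate 1 and 55 in 2-cell replicate 3, while the 41 rows in neither class are dark in most other columns.

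The late levels are set beside those of unheated and heated K2 as a description only, since the rule chose the members on both of the latter. All 22 members at 20 CPM or more in K2 late microspores were above every unheated library there, and 18 of the 22 were under 20 CPM in unheated K2. Over the 72 members, 27 were higher in every late than in every unheated K2 library (background 15.7% of genes) and 3 lower (10.2%). Against heated K2, 66 were lower in every late library (15.2%) and 0 higher (12.6%).

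**Figure D3:**
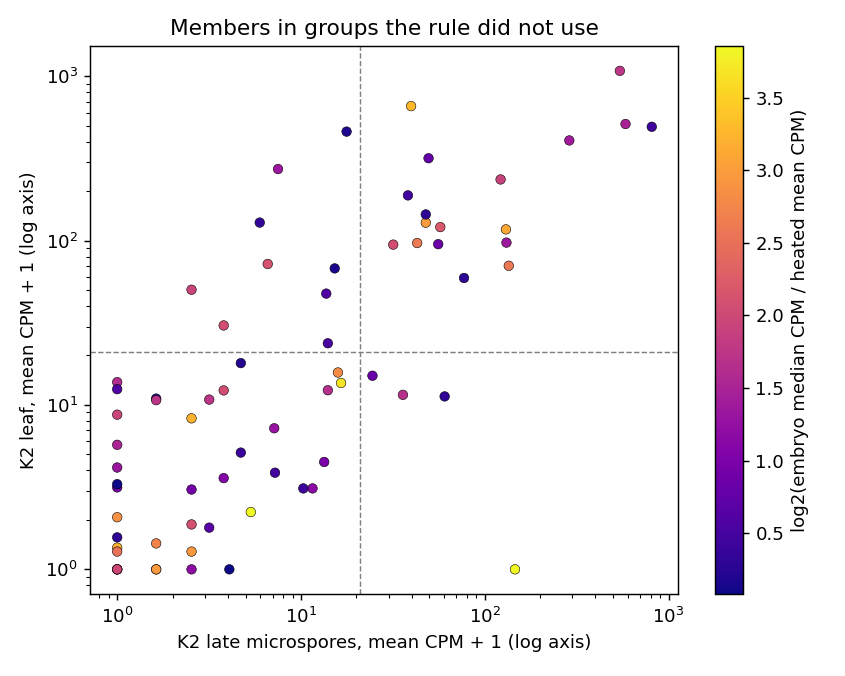
Mean CPM plus 1 of each member in K2 late microspores (x axis, log) and in K2 leaf (y axis, log), with dashed lines at the level of 20 CPM and colour for log2 of embryo median over heated mean. The upper right field holds the 18 members present in both and the lower left the 41 in neither.

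Across members, the order of levels in K2 late microspores and K2 leaf gave a Spearman correlation of 0.717, against 0.673 across all genes with a count. The genes share the same libraries and their depths, and are not independent replicates. Between the lines, it was 0.635 in late microspores (0.640 across all genes) and 0.629 in leaf (0.693).

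The inducible line was compared with the non-inducible line in late microspores at the stage before the heat comparison, and more members were higher than lower in K2. At a Benjamini-Hochberg adjusted p under 0.05 in edgeR's quasi-likelihood fit, 15 of the 62 members tested were higher in K2 and 3 lower, that is 24.2% and 4.84%, against 16.5% and 15.8% of all genes tested (32.3% either way). The median log2 difference over the 62 was 0.01, as most sat at a few counts. Of the 62, 40 were under 20 CPM in K2 late microspores and 52 in 49CX late microspores. Heated K2, where the rule made the members high, was part of this fit, so members could pass the filter there. The counts and percentages over the 62 therefore support no direction. Over all 72 members, 19 were higher in every K2 than in every 49CX library and 2 lower, where 13% and 9.42% of all genes were. That is 26.4% and 2.78% of the members. Mean gene counts were 320981 in K2 and 103799 in 49CX late microspores, and overlap at low level depends on depth. The shares of all genes are not matched to the members in level. The 49CX limit of the rule can also favour genes low in 49CX, so these counts support no direction. Of the 239 contrast genes, 63 (26.4%) were higher and 31 (13.0%) lower, so the share higher in K2 was not particular to the members. Among 226 contrast genes tested, 51 were higher and 23 lower. Fitted to the late microspores alone, 10 members passed the filter, with 8 called higher and 1 lower. All 10 were at 20 CPM or more in K2 late microspores and 5 were under it in 49CX, so members could pass through the line where they are high, and these counts support no direction.

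Of the 15 members higher in K2 late microspores, 12 also reached 20 CPM in K2 leaf and late microspores both, 2 in late microspores alone and 1 in neither. Their log2 differences ran from 1.40 to 7.98. A list of 193 leaf IDs, holding 0 members, moved the same way, at 1.48% ± 0.0351 of gene counts in K2 late microspores (SD, n = 3) and 0.443% ± 0.0344 in 49CX late microspores. The list of 276 pollen IDs went the other way, at 0.126% ± 0.0177 in K2 and 0.443% ± 0.0623 in 49CX late microspores. In heated and unheated microspores the pollen list held 2.74% and 3.08% in 49CX, against 0.134% and 0.626% in K2. The part of either list in the result was not tested.

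BraC04g012970.1 had 149, 185 and 101 CPM in the 3 libraries of K2 late microspores and 0 in each of 49CX. The groups did not overlap. Against a floor of 3 counts over the 49CX group, 9.63 CPM, K2 was at least 15.1-fold higher (adjusted p 1.1e-12, edgeR). It had 0 CPM in each K2 leaf library and in unheated K2, and 236, 403 and 484 CPM in heated K2. In embryos it reached 1222 to 9963 CPM over the 9 libraries and was thus present in late and heated microspores and embryos of K2 and at 0 in its leaf.

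BraC09g018070.1 had 100, 129 and 161 CPM in K2 late microspores and 0, 11.7 and 0 in 49CX, where the middle value is 1 count. The ratio of pooled levels was 37.5 (interval 6.60 to 1494, counting error only, adjusted p 1.75e-09, edgeR). In heated K2 it had 104, 139 and 138 CPM, overlapping the late microspores, and 3.83, 0 and 3.73 CPM when unheated. The line difference was also called in leaf, where K2 had 57.6, 109 and 122 CPM and 49CX 0, 3.73 and 13.3 (log2 3.46, adjusted p 2.98e-07, edgeR).

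BraC09g070480.1 went the other way in late microspores, with 15.1, 9.23 and 13.8 CPM in K2 and 53.5, 46.7 and 96.9 in 49CX. The groups did not overlap, and the log2 difference was -2.24 (SE 0.53, adjusted p 0.000249, edgeR). In leaf K2 was higher, at 49.0, 67.0 and 23.7 CPM against 0, 7.46 and 7.61 (log2 2.56, adjusted p 0.000323, edgeR). In 49CX it kept 37.0 to 95.4 CPM with heat and 66.6 to 82.2 without.

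BraC04g010360.1, the pollen-rich member, had 772, 743 and 913 CPM in K2 late microspores and 2335, 2382 and 2114 in 49CX. Every 49CX library was above every K2 library (log2 -1.45, SE 0.15, adjusted p 3.37e-17, edgeR). In unheated K2 it had 180, 209 and 227 CPM, and in heated K2 1550, 1426 and 1115. In 49CX it stayed between 823 and 1604 CPM unheated and between 1067 and 1390 heated, so its 49CX level without heat was near its heated K2 level.

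**Figure D4:**
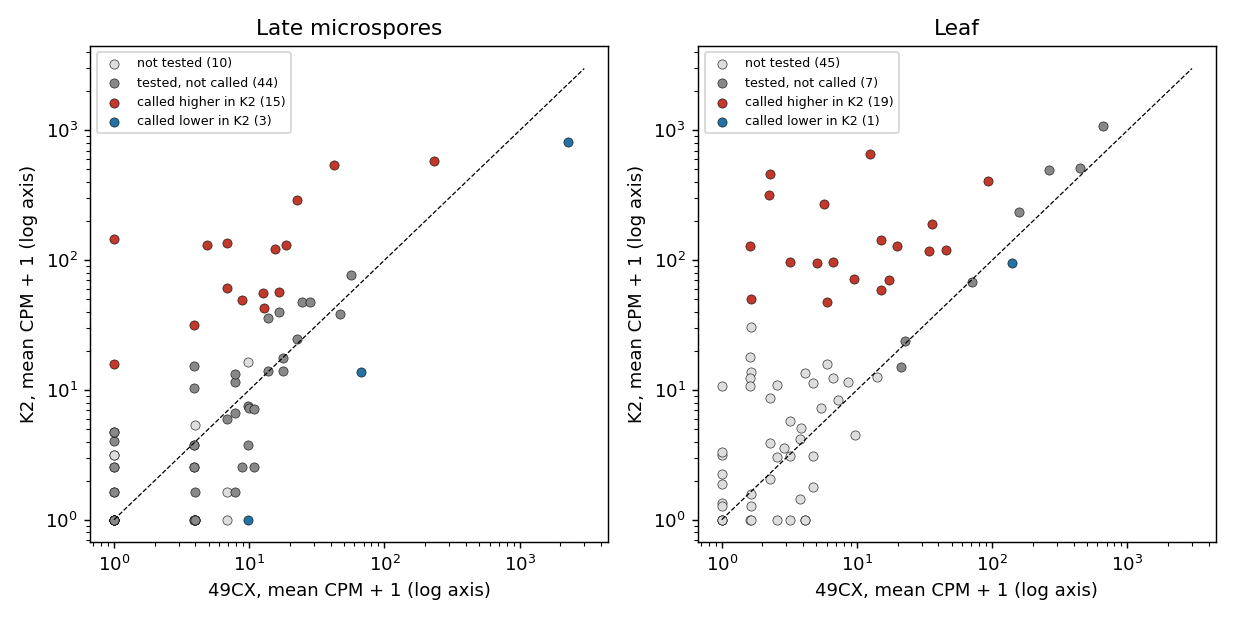
Mean CPM plus 1 of each member in 49CX (x axis, log) and K2 (y axis, log), in late microspores (left) and leaf (right), coloured by the edgeR call, with a dashed line of equality. In late microspores 15 members were called higher and 3 lower in K2, and in leaf 19 higher and 1 lower.

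In leaf, a tissue outside androgenesis, members were again more often higher than lower in K2. K2 was higher in every library than 49CX in every library for 31 of the 72 members and lower for 1, where 19.2% and 11% of all genes were. For the contrast genes the counts were 61 and 13 of 239. Genes with little RNA in 49CX microspores pass the 49CX limit of the rule, and 60 of the 72 members were under 20 CPM there, heated and unheated. The rule can thus favour genes low in 49CX. Mean gene counts were 959801 in K2 leaf and 425101 in 49CX leaf, and the shares of all genes are not matched in level. The counts over the 72 therefore support no direction. In the edgeR fit, 27 members passed the filter, of which 19 were called higher in K2 and 1 lower, against 23.6% and 20.8% of all genes tested (44.3% either way). Of the 27, 15 were under 20 CPM in 49CX leaf and 1 in K2 leaf, so most passed the filter through K2, where they are high, and this count over the 27 is no support for the direction. Their log2 differences ran from 1.11 to 7.78 for those higher, and the 1 lower, BraC03g033810.1, named after its values were seen, was at -0.81 (adjusted p 0.0351, edgeR). Of reads in a gene, in no gene or ambiguous between genes, 55.2% ± 2.09 lay in no annotated gene for K2 leaf and 74.9% ± 10.6 for 49CX leaf (SD, n = 3). The part of this in the result was not tested.

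BraC05g030640.1 had 715, 365 and 297 CPM in K2 leaf and 0, 0 and 3.80 in 49CX leaf. The ratio of pooled levels was 288 (interval 79.5 to 2380, from 1300 and 2 counts, adjusted p 1.75e-13, edgeR). In late microspores the lines had 13.2 to 18.5 CPM and 8.91 to 23.4 CPM, with log2 0.01 (SE 0.79, adjusted p 0.999, edgeR). It was detected in 6 of 9 embryo libraries, the fewest of any member.

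BraC04g032370.1 had 234, 432 and 281 CPM in K2 leaf and 0, 3.73 and 0 in 49CX leaf. The ratio of pooled levels was 195 (interval 53.8 to 1614, from 881 and 2 counts, adjusted p 7.5e-14, edgeR). In late microspores it was at 62.3, 36.9 and 46.1 CPM in K2 and 0, 23.4 and 0 in 49CX, and was called there too (log2 2.92, adjusted p 0.00152, edgeR).

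Higher in K2 in both late microspores and leaf were 8 members, which is 53.3% of the late list and 42.1% of the leaf list. Of the 27 tested in both, 2 were called in opposite directions. No member of those called lower in leaf met the rule for printing an ID.

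Late microspores were then set against leaf within each line, and members leaned to leaf in K2. Over all 72, 28 members were lower in every K2 late library than in every K2 leaf library and 4 higher, where 14.2% and 22.4% of all genes were. Among the 239 contrast genes the lean was the other way, with 35 lower and 92 higher. Of the 27 members that passed the filter, edgeR called 18 lower in late microspores and 3 higher, against 26.3% and 26.9% of all genes (53.2% either way), with a median log2 of -1.41 (0.06 over all genes). Of these 27, 24 reached 20 CPM in K2 leaf, 21 in K2 late microspores, 11 in 49CX leaf and 10 in 49CX late microspores, so members passed the filter more often through K2, and the counts over the 27 support no direction. In 49CX 11 were lower and 5 higher in every library (9.93% and 18.3% of all genes), and edgeR called 7 lower and 2 higher of the 27 (26.4% and 22.4%, 48.8% either way). Scaling by library size alone gave 6 lower and 5 higher in 49CX, and moved the median log2 of all genes to 0.78 there (0 with TMM) and 0.40 in K2. The same scaling moved that median from 0.07 to 0.36 between the leaves of the lines.

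The difference between these differences, late against leaf in K2 minus the same in 49CX, was tested as an interaction. It was called for 17 of the 27 members, 7 higher and 10 lower, against 26.8% of all genes tested, 18.3% higher and 8.52% lower. BraC05g007480.1 was among those called: K2 late microspores had 525, 503 and 600 CPM and 49CX late microspores 26.7, 35.0 and 61.7, whereas K2 leaf had 829, 1202 and 1200 and 49CX leaf 544, 748 and 684. The late line difference was log2 3.72 (SE 0.40, adjusted p 2.84e-10), the leaf one 0.41 (SE 0.29, adjusted p 0.254) and the interaction 3.32 (SE 0.49, adjusted p 9.84e-08), all by edgeR. For BraC09g070480.1 the interaction was -4.80 (adjusted p 2.45e-06), for BraC05g030640.1 -7.71 (adjusted p 7.25e-06) and for BraC04g010360.1 -2.04 (adjusted p 5.69e-05), all by edgeR. The excess of higher over lower among all genes depended on the scaling. By library size alone, 1678 of 12890 genes were higher and 1728 lower, with 5 and 10 of the 27 members. The median log2 of all genes moved from 0.33 to -0.11.

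The 2 members with the largest H in K2 were BraC04g029220.1 (H of 5.33) and BraC05g007480.1 (H of 4.86). BraC04g029220.1 had 0, 8.34 and 0 CPM in unheated K2 and 1100, 908 and 683 in heated K2. Its level reached 1079, 4480 and 1993 CPM in 2-cell, 6317, 13404 and 4960 in 4-cell and 14120, 24568 and 5485 in 8-cell embryos, with overlap between the stages. In K2 late microspores it had 47.2, 36.9 and 41.5 CPM and in K2 leaf 32.0, 141 and 114, while no 49CX library exceeded 17.8 CPM. BraC05g007480.1 had 15.3, 33.4 and 14.9 CPM in unheated and 1582, 1316 and 635 in heated K2, and 13.6, 12.3 and 9.27 in heated 49CX.

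**Figure D5:**
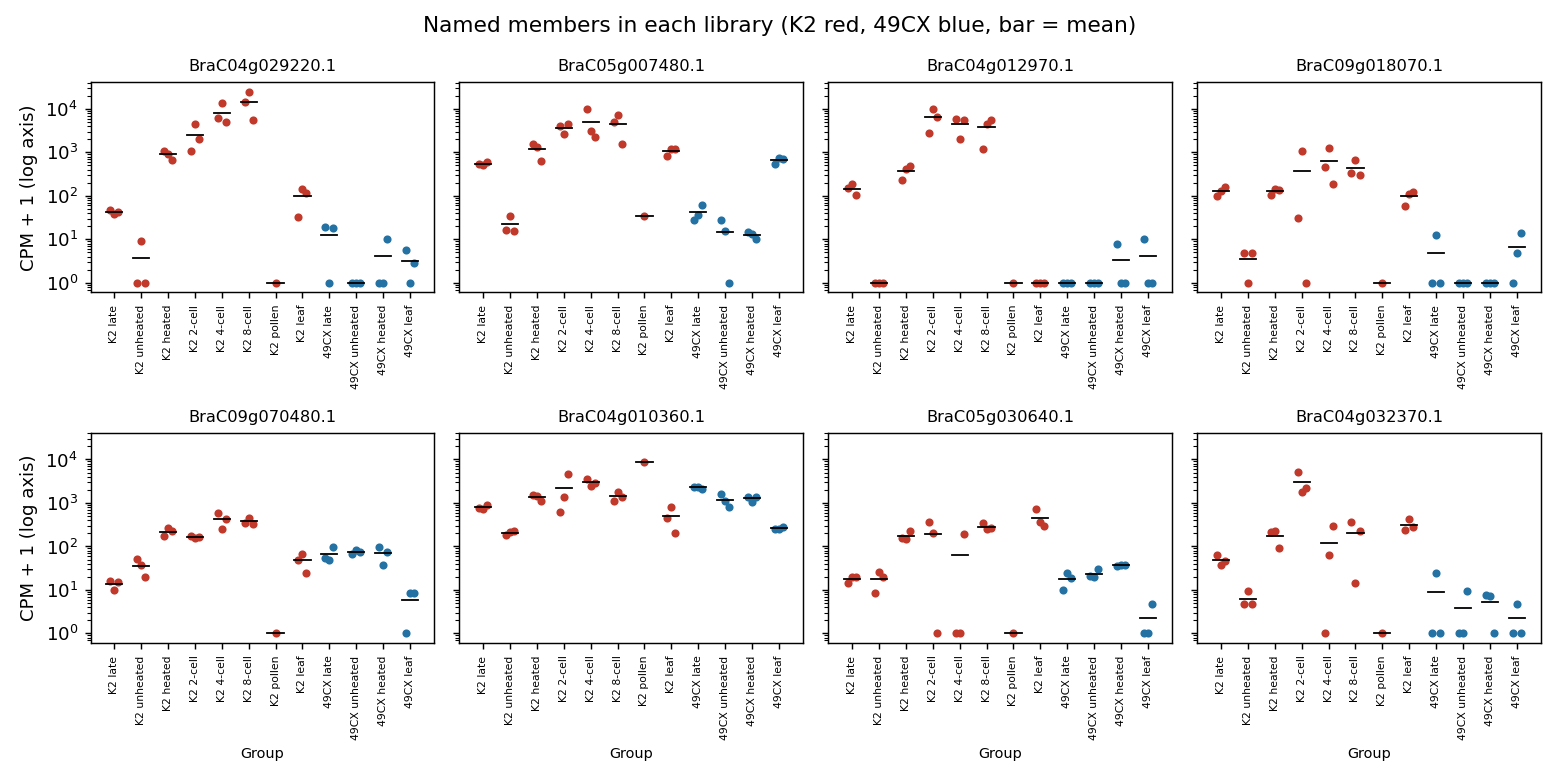
CPM plus 1 (log axis) of the 8 members chosen by the naming rule, in each group, with K2 red, 49CX blue and a bar at the mean. BraC04g010360.1 alone has a high point in the pollen column (8765 CPM), and BraC04g029220.1 has its highest points in 8-cell embryos.

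Embryo libraries of 1 stage differed widely. Across the 72 members, Spearman correlations were 0.367 to 0.722 (median 0.619) between the 9 pairs of one stage and 0.125 to 0.796 (median 0.473) between the 27 pairs of different stages, against 0.480 to 0.749 between heated K2 replicates. The stage means were at or above the heated mean for 65 members at 2 cells, 57 at 4 and 71 at 8. The highest stage was 2-cell for 29 members, 4-cell for 14 and 8-cell for 29. Detection was in all 9 embryo libraries for 34 members, in 8 for 26, in 7 for 11 and in 6 for 1, and 19 members were at or above their heated mean in all 9. For 18 members the single highest library was the shallowest one, 2-cell replicate 3.

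Between stages, edgeR called few members, as of all genes. All 72 passed the filter, as the rule chose them for a high embryo level. The median of their stage means was 499, 289 and 478 CPM at 2, 4 and 8 cells, against 1.96, 0 and 2.64 over all 47135 genes. The shares of genes given here are thus not matched to the members in level, and counts of members above them support no conclusion. Against 2-cell embryos, 2 of 72 were lower in 4-cell embryos and 0 higher (0.745% and 0.131% of genes, 0.875% either way), with 19 at an unadjusted p under 0.05 (17.9% of genes). These 2 were named after their values were seen. BraC01g007350.1 had 1132, 164 and 1495 CPM in 2-cell and 0, 0 and 27.0 in 4-cell embryos (log2 -6.17, SE 1.18, adjusted p 0.0011), and 455, 121 and 166 in 8-cell embryos. Its 27.0 CPM is 1 count, the only one in 4-cell embryos, so the size of this fold is uncertain. BraC01g011320.1 had 856, 128 and 498 CPM in 2-cell and 117, 0 and 108 in 4-cell embryos (log2 -3.49, SE 0.85, adjusted p 0.0217), where the groups did not overlap, although the 4-cell values rest on 5 counts in all. Between 4-cell and 8-cell embryos 0 of 72 were called by edgeR (background 0.0154% higher, 0% lower), with 24 at an unadjusted p under 0.05 (13.8% of genes) and 1 by DESeq2. The counts were 25 (5.12% of genes) and 12 (1.11%) without the 2 shallow libraries and the 2 high in the pollen list, a fit in which 1 lone 2-cell library has to take its spread from the other groups. The median log2 difference over the members was -0.99 in 4-cell against 2-cell embryos (-0.72 over all genes). It was 1.44 in 8-cell against 4-cell embryos (0.78 over all genes). Scaled by library size alone, these medians were -0.22 over the members (0.11 over all genes) and 0.52 (-0.10 over all genes). Their size thus depends on the scaling.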

How the data were processed

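RNA-seq gene counts of 36 libraries were used. Per the labels' protocols, isolated cells were lysed and strand-specific libraries made by a low-input method. The deposited tables hold raw read counts for each gene ID, without normalization. The submitters' processing notes name Trim Galore, HISAT2, Picard and HTSeq. Versions, order, genome build, annotation and the strand setting of counting: not given in the sources used here. Overlapping and near-identical genes may therefore share or lose reads. Summary entries naming no gene were kept out of totals and tests. Of reads in a gene, in no gene or ambiguous between genes, 53.4% to 85.3% lay in no annotated gene in the 34 libraries with gene counts. Reads under any other summary entry were outside this total. The 2 pollen libraries with 0 gene counts were left out.

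The members and lists were chosen with earlier results of these data known. CPM used the sum of gene counts. Tests used edgeR 4.0.16 in R 4.3.3 (quasi-likelihood, robust, TMM, filterByExpr, Benjamini-Hochberg over all genes tested, threshold 0.05), with 18 microspore libraries, 6 leaf libraries, 12 late and leaf libraries, or the embryos with pollen and K2 late and heated microspores in a fit. In the last, the single pollen library takes its spread from the other groups. Leaf and pollen lists were IDs at 100 CPM or more in that tissue and at most 5 CPM in the other tissue and in the embryo median. DESeq2 1.42.0 was the other tool. Intervals (95%, exact) and floors of 3 counts cover counting error only.

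IDs were printed for the 2 members with the largest H and, among called members whose groups did not overlap and whose mean log2 CPM reached 3, the 2 most raised and 2 most lowered in each comparison of the lines. Of 47135 IDs, 0 matched the RefSeq table of assembly CAAS_Brap_v3.01, so lists of named genes were not used and no sequence is given. Alternatives changed the scaling, filter, tool, libraries, replicate block or the rule's settings.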

Additional observations from a re-analysis of the deposited data

Results flagged for a closer look

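The late microspore against leaf difference departed between the lines for 17 of the 27 members tested, by an interaction term in edgeR, with 7 higher and 10 lower in K2 than in 49CX. Of all genes tested 26.8% were called, 18.3% higher and 8.52% lower. Scaled by library size alone, 1678 of 12890 genes were higher and 1728 lower, with 5 and 10 of the 27 members. Of the 27 members, 24 reached 20 CPM in K2 leaf and 11 in 49CX leaf, so members passed the filter more often through K2, and the counts support no direction. Late microspores and leaf of both lines enter this fit, and leaving out 1 library at a time gave 12 to 17 members. One of the 10 members lower with TMM was BraC05g030640.1. It had 715, 365 and 297 CPM in K2 leaf against 0, 0 and 3.80 in 49CX leaf, and overlapping levels in late microspores.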

How the results depend on the processing

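The set depended on the offset: 186 genes met the rule with 5 CPM added in H (39 of them members) and 24 with 50 CPM (21 members), against 72. Leaving out 1 library at a time gave 67 to 78 genes, and TMM-scaled CPM 65 (60 members). In late microspores of K2 against 49CX, 18 members were called, 13 to 17 without 1 library, and 9 when only those groups were fitted, where 10 members passed the filter. The leaf count of 20 ranged from 18 to 21, late against leaf from 18 to 22 in K2 (21) and from 9 to 11 in 49CX (9), and the interaction from 12 to 17. For 4-cell against 2-cell embryos the count of 2 became 1 with DESeq2 size factors, 4 by library size alone, 10 with no filter, 5 with DESeq2, 1 with the replicate block, 0 with only those groups and 25 without the 4 doubted libraries (chosen after seeing the data), and ranged from 1 to 9 without 1 library, the 9 being without 2-cell replicate 2. For 8-cell against 4-cell embryos the count of 0 became 1 by library size alone, 6 with no filter, 1 with DESeq2 and 12 without those 4 libraries, and ranged from 0 to 5, the 5 being without 8-cell replicate 3. The cause was not tested. The 6 members named from the comparisons of the lines kept their side of the threshold in all 69 alternatives run on them. Numbers shared between groups were not taken to pair the samples, as no comparison had every correlation over 0.1. Correlations of same-numbered deviations were -0.0142 to 0.00282 between late microspores of the lines and -0.0789 to -0.00934 between leaves, where 0 of 6 samples went best with their own number. In K2 late and leaf they were 0.0205 to 0.0335 (6 of 6), in 49CX late and leaf 0.000835 to 0.0276 (4 of 6), in 4-cell and 2-cell embryos -0.248 to -0.0308 (0 of 6) and in 8-cell and 4-cell embryos -0.363 to 0.273 (2 of 6). The replicate block gave 18, 20, 21, 9 and 17 members in the 5 comparisons outside embryos. In the shallowest embryo library 3 counts are worth 498 CPM.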

Other observations

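Members were spread over the 10 ID prefixes, and BraC04 held 13.9% of the members against 7.10% of all IDs. In all, 3 pairs stood within 5 places of each other in the deposited order. BraC09g065770.1 and BraC09g065790.1, with 1 ID between them, had a Pearson correlation of 0.913 in log2 of CPM plus 1 over 34 libraries, which share stage and line. The adjacent BraC01g007350.1 and BraC01g007360.1 had 0.544. Whether such neighbours share reads was not tested.

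Of genes with an H of at least 2 in K2, the share at or above their heated level in embryos was 23.2% of 311 among those flat in 49CX and 23.3% of 73 among those with an H of at least 1 in 49CX. Among all 3673 genes at or above the lowest member's level in heated K2, it was 13.7%. No test of these shares was made.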
